A study of Mus musculus with 2 samples.

Results

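The potassium channel genes are described here: the protein-coding genes whose symbol begins with Kcn in the GENCODE M21 annotation, taken where they had reads in both libraries of the series. Of 94 such genes, 70 had reads in both libraries, 8 in 1 library and 16 in neither, beside 14787 annotated genes, 13066 of them protein-coding, with reads in both. The samples were total RNA of tissue labelled as layer of hippocampus, from female B6CASTF1/J mice, the hybrid of the C57BL/6J and CAST/EiJ strains, at 2 months of age, with no treatment named. There was 1 group of 2 long-read RNA libraries, each begun with 2 µg of RNA and numbered as biological replicates 1 and 2. The labels number the biosamples separately but give them 1 donor record, so the spread between libraries may not be that between animals. With 1 group, no comparison between conditions was possible, and the questions addressed are which potassium channel genes this tissue expressed, in which isoforms, and how far the 2 libraries differed.

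Potassium channels let potassium ions cross the membrane and so set the resting potential, end the action potential and limit repetitive firing. Most pores are built from alpha subunits of the voltage-gated (Kv), calcium- or sodium-activated, inward-rectifier or two-pore (K2P) families, and beta subunits, KChIPs and KCNE proteins bind to them and change their gating or transport. In the hippocampus, A-type currents in dendrites, the M-current and the afterhyperpolarization of pyramidal neurons are carried by different members of these families, and glia clear potassium through inward rectifiers.

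The libraries held 826596 and 745492 reads not on spike-ins. Levels are given per 1000000 of these (CPM), where 1 read counts 1 cDNA copy and nothing is divided by length. A single read was worth 1.21 CPM in replicate 1 and 1.34 in replicate 2, and 0 reads allow up to 3.63 and 4.02 CPM. In each pair of read counts below, replicate 1 comes first, and each ± is the SD of n = 2 libraries. All 6 pan-neuronal, 6 astrocyte and 5 oligodendrocyte markers had reads in both libraries, with summed levels of 5388 ± 30.6, 3407 ± 27.6 and 2604 ± 168 CPM. Microglial, endothelial and mural markers summed to 239 ± 18.4, 226 ± 44.7 and 118 ± 14.9 CPM. Choroid plexus markers summed to 525 CPM in replicate 1 and 365 in replicate 2, with Aqp1 and Otx2 at 0 reads. In such bulk tissue, fewer cells of a type and less RNA per cell cannot be told apart.

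The genes with a read summed to 2223 and 2195 reads, or 2817 ± 180 CPM, and the 10 leading ones held 54.0% of these reads. The median of the 70 genes was 18.8 CPM in replicate 1 and 20.8 in replicate 2, beside 24.2 and 24.1 for protein-coding genes. A mean of 100 CPM was reached by 8, 11.4% of the 70 against 14.5% of protein-coding genes, and 49 reached 10 CPM, 70% against 72.0%. Across the 70 genes, level and the length of the longest coding transcript had a Pearson r of 0.07 and a Spearman rho of 0.08, over genes that share the same 2 libraries. How recovery fell with transcript length was not measured.

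**Figure D1:**
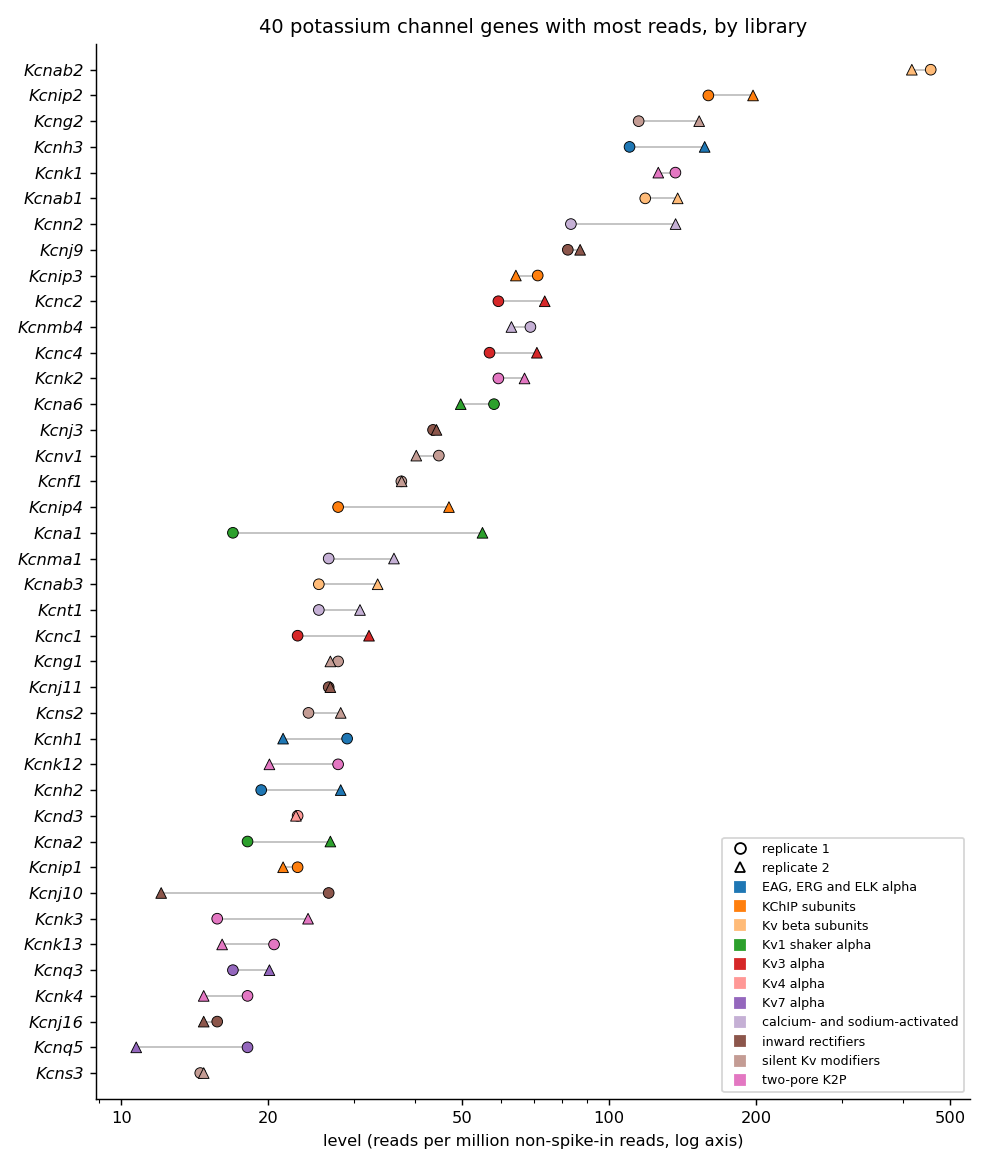
Level of 40 potassium channel genes, those with most reads among the ones drawn, in CPM on a log axis, with a circle for replicate 1, a triangle for replicate 2 and the colour giving the role. Kcnab2 lies above all others in both libraries, and Kcna1 shows the widest gap between libraries.

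Among the roles, the Kv beta genes had the highest summed level. These 3 genes, whose cytoplasmic proteins attach to Kv1 pores, held 21.2% of the potassium channel reads, at 594 ± 7.90 CPM. Kcnab2 alone had 377 and 311 reads, a level of 437 ± 27.5 CPM. Kcnab1, whose product can close Kv1 channels soon after they open, had 98 and 103 reads, 128 ± 13.9 CPM. Kcnab3 was lowest of the 3, with 21 and 25 reads, 29.5 ± 5.75 CPM.

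Isoforms were compared among full-splice reads, those whose chain of introns was that of an annotated transcript or was unannotated. An unannotated chain need not be complete. One such Kcnab1 chain, with 0 and 1 reads, had 8 exons against 14 in Kcnab1-201. Among these reads, Kcnab1-201 took 97.0% ± 1.10 and Kcnab2-207 took 89.1% ± 2.97. Full-splice reads were 83.5% ± 4.10 of all Kcnab1 reads and 51.9% ± 3.44 of all Kcnab2 reads. Another 36 and 35 Kcnab2 reads were in 1 incomplete model of 15 exons. It lacks the first exon, where Kcnab2-207 and Kcnab2-202 differ. Kcnab2-207 holds a coding exon of 42 bases at chr4:152434782-152434823 (mm10, minus strand) that Kcnab2-201 lacks. Of the spliced reads over this place, 238 of 243 had the exon in replicate 1 and 191 of 192 in replicate 2, so a Kcnab2 without it was rare in both libraries. The exon is shown because it separates the annotated forms of the most abundant gene here. It is in capitals, between 12 bases of each neighbouring exon, from the GENCODE M21 transcript.
Kcnab2 exon of 42 bases: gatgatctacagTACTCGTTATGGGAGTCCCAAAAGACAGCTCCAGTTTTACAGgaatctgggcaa

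The 4 KChIP genes encode calcium-binding proteins that attach to the N-terminus of Kv4 pores, bring them to the membrane and shape the A-type current. Together they stood at 306 ± 34 CPM, while the 3 Kv4 pore genes stood at 44.3 ± 5.76 CPM. Kcnip2 had 132 and 147 reads, 178 ± 26.5 CPM. Kcnip3, whose product also binds DNA and presenilins, had 59 and 48 reads, 67.9 ± 4.94 CPM. Kcnip4 followed with 23 and 35 reads, 37.4 ± 13.5 CPM, and Kcnip1 with 19 and 16, 22.2 ± 1.08 CPM.

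The leading Kcnip2 isoforms differed in a pair of coding exons. Kcnip2-209 took 77.0% ± 1.19 of full-splice Kcnip2 reads, Kcnip2-202 took 9.58% ± 1.04 and Kcnip2-208 took 5.08% ± 1.57. Kcnip2-202 lacks a coding exon of 54 bases at chr19:45796279-45796332, and Kcnip2-208 lacks that exon and another of 96 bases at chr19:45797091-45797186 (both minus strand). Reads over the first place had the 54-base exon in 94 of 112 cases in replicate 1 and 107 of 126 in replicate 2, or 84.4% ± 0.70. For the 96-base exon the figures were 102 of 112 and 116 of 122, or 93.1% ± 2.84. The 2 libraries thus gave nearly the same mix of long and short Kcnip2. Both exons have lengths that divide by 3, and they are shown in capitals with 12 bases of each neighbour.
Kcnip2 exon of 96 bases: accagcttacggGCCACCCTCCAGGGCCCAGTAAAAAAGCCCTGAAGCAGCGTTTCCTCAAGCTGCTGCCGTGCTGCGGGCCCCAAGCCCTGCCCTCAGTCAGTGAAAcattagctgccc
Kcnip2 exon of 54 bases: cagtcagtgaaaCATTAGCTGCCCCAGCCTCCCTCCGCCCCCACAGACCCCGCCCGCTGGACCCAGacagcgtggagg

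In Kcnip3 the leading pair of isoforms differed by 4 bases. Kcnip3-203 took 76.0% ± 7.64 and Kcnip3-201 took 15.4% ± 8.67 of full-splice reads. Their shared exon at chr2:127465854-127465978 (minus strand) begins 4 bases earlier in Kcnip3-203, and 38 of 50 reads in replicate 1 and 39 of 44 in replicate 2 used that earlier acceptor. The exact 95% intervals, 61.8% to 86.9% and 75.4% to 96.2%, overlapped; such intervals, and limits for 0 reads, cover counting error only. The exon is shown with the 4 variable bases in capitals and 12 bases of each neighbour.
Kcnip3 exon of 125 bases: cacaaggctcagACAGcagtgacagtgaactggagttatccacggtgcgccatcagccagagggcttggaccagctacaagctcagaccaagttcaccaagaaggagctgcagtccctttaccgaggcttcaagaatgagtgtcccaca

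Kcnip4 had almost no full-splice read, 1 in each library. Instead 15 of 23 reads in replicate 1 and 25 of 35 in replicate 2 belonged to 1 incomplete model of 8 exons, at chr5:48389502-48509760 on the minus strand. This model begins at the second of the 9 exons of Kcnip4-201, so the model holds every exon of that transcript but the first. Its start lies 17496 bases from the nearest annotated transcript start and 1015147 bases from that of the gene, which spans 1135 kb.

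Among the pore-forming genes of the Kv3 family, which lets neurons fire at high rates, Kcnc2 had 49 and 55 reads, 66.5 ± 10.3 CPM. Kcnc4 was close to it, with 47 and 53 reads, 64.0 ± 10.1 CPM. Kcnc1 was lower, with 19 and 24 reads, 27.6 ± 6.51 CPM. The levels of Kcnc2 and Kcnc4 differed by less than the spread between libraries.

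Kcnc4 and Kcnc2 departed from the annotation in how their transcripts were spliced. Kcnc4-201 had 22 and 32 full-splice reads, and an unannotated chain had 16 and 15, or 34.8% ± 5.95. The latter used an unannotated intron at chr3:107439415-107445429 (minus strand), which leaves a last exon of 1112 bases in place of 1174. The bases removed hold all 53 coding bases that Kcnc4-201 has in its last exon. No Kcnc2 isoform was dominant, and the leading chain was itself unannotated, with 6 of 23 and 8 of 31 full-splice reads. Its deposited class is that of annotated splice sites in an unannotated combination. Its first intron, at chr10:112270549-112271686 (plus strand), was unannotated and begins upstream of the annotated gene start at chr10:112271121. The first exon of this chain therefore lies outside the annotated gene.

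The Kv1 genes, which encode low-threshold channels of axons and terminals, summed to 130 ± 26.6 CPM. Kcna6 led with 48 and 37 reads, 53.9 ± 5.97 CPM. Kcna1 had 14 and 41 reads, 36.0 ± 26.9 CPM, so the libraries stood far apart for this gene. Kcna2 had 15 and 20 reads and Kcna4 had 12 and 9. Kcna3 and Kcna5 had at most 3 reads in a library, and Kcna7 and Kcna10 had none. Of the full-splice reads of Kcna6, 36 of 42 and 25 of 30 belonged to Kcna6-201, which the annotation types as subject to nonsense-mediated decay. It has 2 exons, the first holding all 1587 coding bases. Only 1 read in each library matched Kcna6-202, the single-exon transcript typed as protein-coding. Through Kcna6, transcripts of the decay type took 2.78% ± 0.63 of annotated-isoform reads of the potassium channel genes, against 0.489% ± 0.02 for protein-coding genes. This type was set from the position of the intron, and no decay was measured.

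The delayed rectifier Kcnb2, a channel of the soma and proximal dendrites, had 2 and 9 reads, 7.25 ± 6.83 CPM. Kv4 pores, the partners of the KChIPs, had few reads: Kcnd3 had 19 and 17, 22.9 ± 0.13 CPM, Kcnd2 had 11 and 10, and Kcnd1 had 10 and 3. Only 0 and 1 of the Kcnd2 reads were full-splice, and 59.0% ± 16.4 of the Kcnd3 reads were genomic.

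Silent Kv subunits form no channel alone and change the gating of Kv2 pores. The 8 of 10 such genes with reads in both libraries summed to 293 ± 25.9 CPM. Kcng2 had 95 and 114 reads, 134 ± 26.9 CPM. By reads together it ranked 3 among all potassium channel genes, with 209 against 208 for Kcnh3 and 207 for Kcnk1. Its place among these genes is thus not settled. Kcnv1 followed with 37 and 30 reads, 42.5 ± 3.20 CPM, and Kcnf1 with 31 and 28, 37.5 ± 0.04 CPM. Kcng1 had 23 and 20 reads, 27.3 ± 0.71 CPM, and Kcns2 had 20 and 21, 26.2 ± 2.81 CPM. Kcns3 had 12 and 11 reads, Kcng4 had 5 and 7, and Kcng3 had 4 and 1. Kcnf1 has 1 exon, and all its reads matched that single annotated transcript.

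Every leading isoform of Kcng2 was unannotated. The 3 leading chains took 36.1% ± 3.97, 26.3% ± 1.5 and 14.4% ± 1.91 of full-splice reads, with 28 and 37, 23 and 24, and 11 and 15 reads. The first pair differed by 1 noncoding exon of 167 bases at chr18:80362767-80362933 (minus strand). The leading chain began with a first exon of 52 bases at chr18:80363599-80363650, and the third with one of 124 bases at chr18:80363213-80363336. Further chains with 7 and 6 and with 5 and 6 reads both held the 167-base exon. In all, 5 of the 8 unannotated chains with at least 5 reads in each library belonged to Kcng2, and the others to Kcnc2, Kcnc4 and Kcnn2.

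Kv7 channels carry the M-current, which muscarinic receptors shut. Kcnq3 had 14 and 15 reads, 18.5 ± 2.25 CPM. None of the Kcnq3 reads had a full splice chain, and 28 of its 29 reads were genomic. Kcnq5 had 15 and 8 reads, and Kcnq1 had 2 and 1.

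The EAG, ERG and ELK genes summed to 191 ± 30.1 CPM, most of it from Kcnh3, a forebrain ELK channel, with 91 and 117 reads, 134 ± 33.1 CPM. Kcnh1 (EAG) had 24 and 16 reads, 25.2 ± 5.35 CPM, and Kcnh2 (ERG) had 16 and 21. Kcnh4, Kcnh6 and Kcnh7 had 1 to 3 reads a library, and Kcnh5 and Kcnh8 had 1 read in replicate 1 alone. Kcnh3-201 took 71.1% ± 6.20 of full-splice reads. An unannotated chain with 4 and 5 reads skips a coding exon of 77 bases at chr15:99241750-99241826 (plus strand), whose length does not divide by 3. Over all spliced reads at this place, 74 of 78 and 101 of 108 held the exon, and the skipped form was rare but present in both libraries. It is shown in capitals with 12 bases of each neighbour.
Kcnh3 exon of 77 bases: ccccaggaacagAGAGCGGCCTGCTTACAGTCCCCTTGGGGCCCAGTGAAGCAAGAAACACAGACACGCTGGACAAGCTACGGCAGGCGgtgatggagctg

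Calcium- and sodium-activated channels, which open after firing and produce the afterhyperpolarization, summed to 273 ± 50.5 CPM. Kcnn2, the small-conductance SK channel of pyramidal cells, had 69 and 102 reads, 110 ± 37.7 CPM. Kcnn1 had 10 and 12 reads, and Kcnn3 had 1 and 2. Of the large-conductance BK channel, the neuronal beta subunit Kcnmb4 had 57 and 47 reads, 66.0 ± 4.18 CPM, and the pore gene Kcnma1 had 22 and 27, 31.4 ± 6.79 CPM. The other beta subunits were near or at 0: Kcnmb2 had 4 reads in replicate 1, Kcnmb1 had 2 in replicate 2, and Kcnmb3 had none. The sodium-activated Kcnt1 had 21 and 23 reads, 28.1 ± 3.85 CPM, and Kcnt2 had 8 and 12. Kcnu1, a BK relative best known from sperm, had 4 and 3. Kcnn2-208 took 86.1% ± 0.35 of full-splice Kcnn2 reads. An unannotated chain with 5 and 6 reads, 7.05% ± 0.75, has an exon of 132 bases where Kcnn2-208 has 128, at chr18:45676937-45677068 (plus strand).

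Among inward rectifiers, which pass current best near rest, the G-protein-gated GIRK genes Kcnj9 and Kcnj3 led. Kcnj9 had 68 and 65 reads, 84.7 ± 3.48 CPM, and Kcnj3 had 36 and 33, 43.9 ± 0.50 CPM. Kcnj6, also a GIRK gene, was lower, with 13 and 8 reads, 13.2 ± 3.53 CPM. The remaining GIRK gene, Kcnj5, had no read. Kcnj11, the pore of ATP-sensitive channels, had 22 and 20 reads, 26.7 ± 0.15 CPM, while the other such pore, Kcnj8, had 3 and 1. Glial Kcnj10 had 22 and 9 reads, 19.3 ± 10.3 CPM, and its partner Kcnj16 had 13 and 11, while the astrocyte marker sum was 3426 CPM in replicate 1 and 3387 in replicate 2. Kcnj4 had 4 and 7 reads and Kcnj14 had 2 and 6. Kcnj2, Kcnj12 and Kcnj15 had 1 to 3 reads in 1 library alone. Kcnj13, a channel of the choroid plexus, had 6 and 2 reads, and of the choroid plexus markers Ttr was higher in replicate 1, at 328 against 176 CPM. Enpp2 stood at 185 and 176 CPM, Kl had 8 and 6 reads, Folr1 had 1 in each and Clic6 had 1 and 3, so Ttr carried nearly all of the difference in the sum. Its part in the Kcnj13 reads was not tested. Kcnj3-203 took 84.6% ± 5.53 of full-splice reads, and its coding exon of 217 bases at chr2:55446826-55447042 (plus strand) was in 28 of 31 and 25 of 26 spliced reads there.

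Two-pore channels carry background, or leak, potassium current, and 10 of their 14 genes had reads in both libraries, summing to 296 ± 2.72 CPM. Kcnk1 led with 113 and 94 reads, 131 ± 7.51 CPM, and 96.9% ± 1.88 of its full-splice reads were Kcnk1-201. The mechanosensitive Kcnk2 had 49 and 50 reads, 63.2 ± 5.51 CPM. Kcnk12 had 23 and 15, Kcnk3 had 13 and 18, Kcnk13, which microglia use, had 17 and 12, and Kcnk4 had 15 and 11. Kcnk9 had 8 and 10 reads, and Kcnk6, Kcnk7 and Kcnk10 had 1 to 5 a library. Kcnk13 had 10 and 7 reads in 1 incomplete model of 2 exons that has the last intron of Kcnk13-201 and not the first. The model starts at an annotated transcript start, 26 bases from the start of the gene. It runs unspliced over the place of the first intron of Kcnk13-201, a transcript of 3 exons.

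Kcnk2 combined several starts with a skipped exon. Kcnk2-206 had 14 and 14 full-splice reads, 44.5% ± 3.00, and an unannotated chain with the same first exon had 8 and 4, 18.8% ± 7.71. That chain lacks a coding exon of 118 bases at chr1:189295594-189295711 (minus strand), whose length does not divide by 3. Over all spliced reads, 20 of 33 in replicate 1 and 26 of 31 in replicate 2 held the exon, with overlapping intervals of 42.1% to 77.1% and 66.3% to 94.5%. A further 13 and 17 Kcnk2 reads, 26.5% and 34% of the gene's reads, were single-exon and incomplete, within a stretch at chr1:189343301-189343832 at an annotated 5′ end. The skipped exon is shown in capitals with 12 bases of each neighbour.
Kcnk2 exon of 118 bases: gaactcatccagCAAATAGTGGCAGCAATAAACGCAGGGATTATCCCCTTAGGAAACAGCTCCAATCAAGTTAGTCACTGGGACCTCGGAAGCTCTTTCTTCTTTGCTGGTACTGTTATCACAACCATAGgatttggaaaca

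The genes with no read were Kcna7, Kcna10, Kcne1, Kcne2, Kcne3, Kcne4, Kcnj1, Kcnj5, Kcnk5, Kcnk15, Kcnk16, Kcnk18, Kcnmb3, Kcnn4, Kcns1 and Kcnv2. The 4 classical KCNE genes, single-pass subunits best known from heart and epithelia, were all among them, and of that family Kcne1l alone had reads, 2 and 4. Kcnrg, which regulates assembly of Kv channels, had 2 reads in replicate 2. A chosen list of partners outside the Kcn symbols was also counted. Of 18 such genes 16 had reads in both libraries, led by Vapa, which tethers Kv2 clusters to the endoplasmic reticulum, at 267 ± 15.6 CPM, and Lgi1, which binds Kv1 complexes, at 180 ± 32 CPM. Nedd4l, a ubiquitin ligase of Kv7 pores, stood at 94.1 ± 15 CPM. The Kv2 subunit Amigo1, the sorting nexin Snx27 and the Kv4 subunit Dpp6 stood at 81.2 ± 4.87, 72.2 ± 9.77 and 69.2 ± 4.85 CPM. Lrrc26 and Lrrc52, gamma subunits of BK channels, had no read.

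The leading isoform took a median of 84.5% in the 20 genes that reached 20 full-splice reads per library, beside 83.8% over protein-coding genes. In 3 of them more than 1 isoform reached 10% in both libraries, 15% against 30.3% of protein-coding genes: Kcng2, Kcnc4 and Kcnk2. This count depended on the setting: it was 9 of 23 genes without replicate 1, 6 of 21 without replicate 2 and 12 of 20 at a share of 5%, where no share of protein-coding genes was computed. The leading isoform was the same chain in both libraries in 19 of the 20. It was an unannotated chain in Kcng2 and Kcnc2 and an annotated one in the rest. The share of the leading isoform was tested with Fisher's exact test over all genes, where 0.187% were called (adjusted p under 0.05), and 0 of the 20 were called. At an unadjusted p under 0.05 there was 1 of the 20, with an exact adjusted p of 1, and 3.57% of all genes below that limit.

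**Figure D2:**
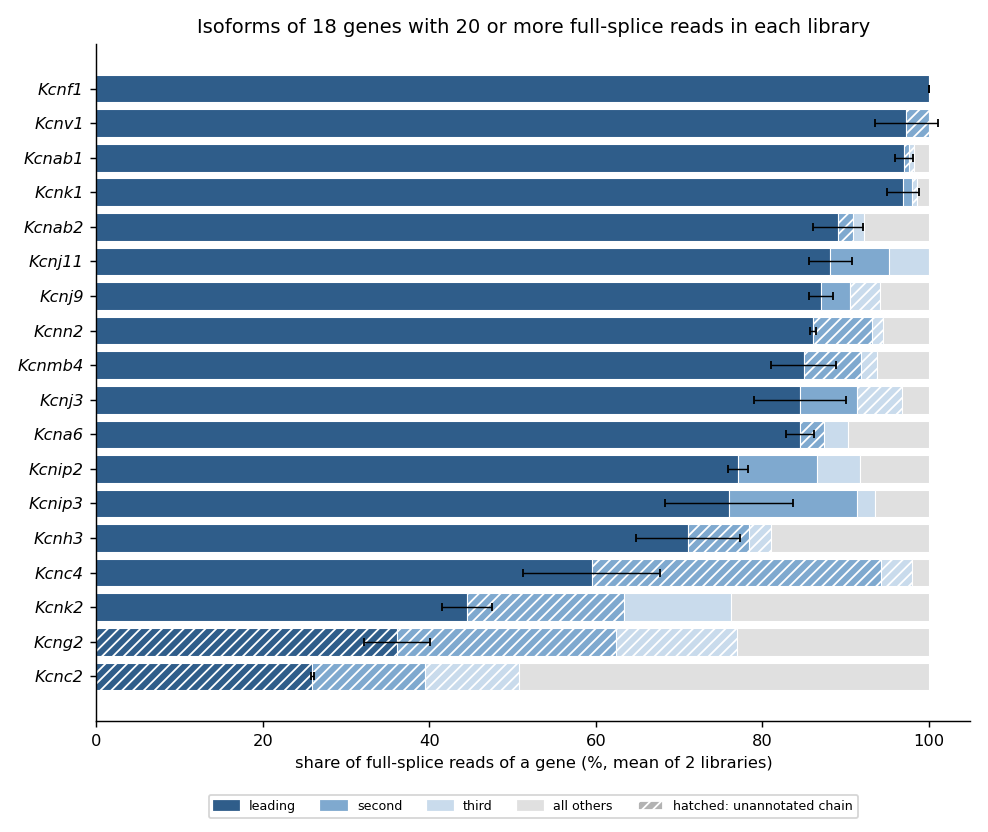
Share of full-splice reads in each of the 3 leading isoforms and in all others together, for 18 of these genes, as the mean of 2 libraries, with the SD of the leading share as a bar and unannotated chains hatched. Kcng2 and Kcnc2 are led by unannotated chains, and Kcnf1, Kcnv1, Kcnab1 and Kcnk1 are nearly all 1 isoform.

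The reads fell into 3 classes: full-splice, incomplete (a part of an annotated chain) and genomic, the class for reads on a gene's strand that match no chain. In the 27 genes that reached 20 reads per library the median shares were 78.6% ± 3.46, 8.07% ± 0.83 and 8.06% ± 5.38, against 84.8%, 7.48% and 3.29% for protein-coding genes. With reads pooled over genes the genomic share was 16.0% ± 1.51 against 9.09% ± 0.15. Genomic reads were the majority in 3 of the 27, or 11.1% against 4.40% of protein-coding genes. Among them was Kcnma1, with 17 of 22 and 22 of 27 reads.

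Other high shares belonged to Kcnt1 at 47.1% ± 19.5, Kcnj9 at 25.5% ± 1.31 and Kcnip4 at 22.4% ± 11.4. Kcnab2 stood at 21.9% ± 0.52, Kcnj3 at 17.6% ± 5.18 and Kcns2 at 17.3% ± 10.9. At the other end, Kcna6, Kcnv1, Kcnf1 and Kcnj11 had no genomic read in either library, and Kcng2 had 1 in each. Below 20 reads in a library, Kcnj10 was genomic in 21 of 22 and 9 of 9 reads, Kcna2 in 12 of 15 and 14 of 20, and Kcnc1 in 14 of 19 and 20 of 24. Among the 27 genes the genomic share went with the length of the annotated last exon, with a Pearson r of 0.59 on its logarithm and a Spearman rho of 0.44, over genes that share the same libraries. Kcnma1 has a last exon of 7755 bases, but 6 of its 17 and 8 of its 22 genomic reads were in models mostly in introns. How many genomic reads lay in the last exon was not measured. Kcnv1, at 3202 bases, did not follow this trend, with no genomic read. In Kcnf1 and Kcnj11 the longest coding transcript has 1 exon, of 4789 and 3142 bases. An unspliced read there can match the annotated transcript and count as full-splice. Their lack of genomic reads is thus no test of the trend, though both genes are in these coefficients.

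**Figure D3:**
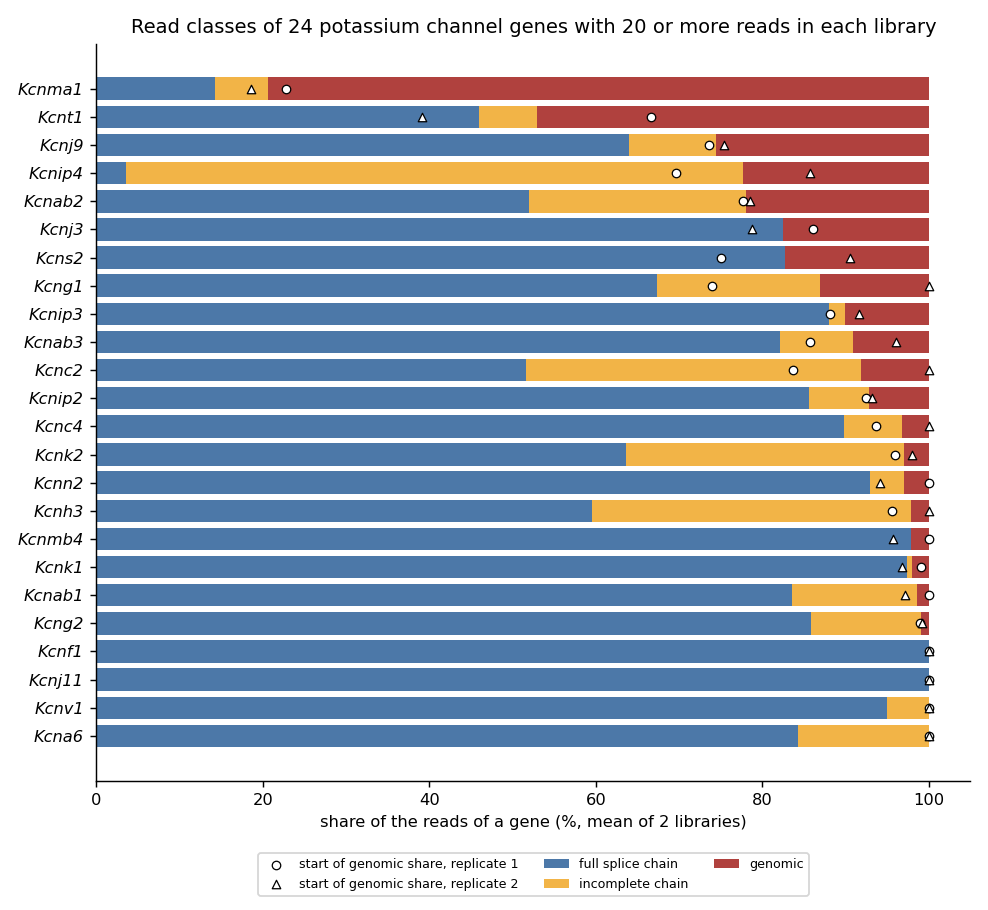
Share of full-splice, incomplete and genomic reads in 24 of these genes, as the mean of 2 libraries, with a circle and a triangle where the genomic share of replicates 1 and 2 begins. Genomic reads are the majority in Kcnma1, and incomplete reads in Kcnip4.

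**Figure D4:**
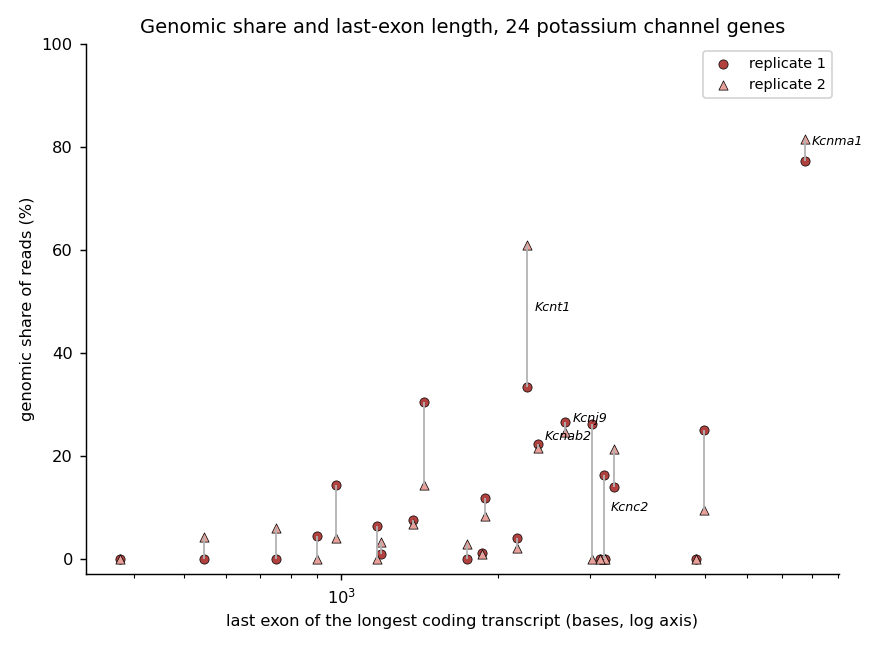
Genomic share of each of these 24 genes in replicate 1 (circle) and replicate 2 (triangle) against the length of the last exon of its longest coding transcript, on a log axis. Kcnma1, with a long last exon, lies highest, and a line joins the libraries of each gene.

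Most genomic reads of potassium channel genes lay inside exons, in models with at least 90% of their bases there, at 398 of 443 in replicate 1 and 269 of 429 in replicate 2. These are 89.8% and 62.7%, against 70.2% and 67.3% over protein-coding genes, so the share lay above that of protein-coding genes in replicate 1 and below it in replicate 2. Models mostly in introns held 38 and 44, or 8.58% and 10.3%, against 12.9% and 12.7%. Models that ran over 50 bases past the annotated 3′ end held 1 and 90, or 0.226% and 21%, against 7.24% and 8.73% over protein-coding genes. Of the 90, 66 were Kcnab2, 13 Kcna1, 6 Kcnj6 and 5 Kcnk7. Kcnab2 had 84 genomic reads within exons in replicate 1, and 1 in replicate 2, so the class of its genomic models differed between libraries, while its genomic share was 22.3% and 21.5%. Ends are those of the model, not of each read, and a model past the end may still lie mostly in the exon. Incomplete reads kept the 3′ part of the chain in 76.8% ± 1.45 of cases, against 69.0% ± 0.02 over protein-coding genes.

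In gene level the libraries differed for 1 of the 48 potassium channel genes with at least 20 reads together, in an exact binomial test against the library totals (adjusted p under 0.05 and at least 2-fold), where 0.309% of all 9062 genes were called. This was Kcna1, at 14 against 41 reads, a log2 ratio of -1.67 (adjusted p = 0.0171 by the exact test). Replicate 2 had 13 genomic Kcna1 reads in a model at chr6:126636472-126640397, which runs from the annotated 3′ end downstream. Replicate 1 had 15 reads on the same strand in a model with the same far end, chr6:126636472-126639405, that was assigned to no annotated gene. Counting such downstream models in every gene, an alternative chosen after these values were seen, gave 29 against 41 reads, a log2 ratio of -0.64 and an adjusted p of 0.719 by the exact test. Among full-splice reads alone, at 14 against 28, the adjusted p was 0.532 by the same exact test. The call was lost under both of these countings. At an unadjusted p under 0.05 there were 5 potassium channel genes, with 7.42% of all genes below that limit. The others were Kcnn2, Kcnh3 and Kcng2, higher in replicate 2, and Kcnj10, higher in replicate 1, with adjusted p of 0.157, 0.454, 0.655 and 0.656 by the exact binomial test.

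The genomic share differed between libraries in 1 of the 27 genes tested by Fisher's exact test, where 4.99% of 6038 genes were called. This was Kcnc2, with 8 of 49 against 0 of 55 reads (exact adjusted p = 0.0365). The 8 reads lay in a single-exon genomic model at chr10:112463050-112466304. Replicate 2 had 9 reads at chr10:112463117-112466304, the same stretch over 3188 of its 3255 bases, in a single-exon model classed as incomplete. With single-exon incomplete reads counted as genomic in every gene, also chosen after seeing the data, Kcnc2 had 8 of 49 against 9 of 55 and 6 of the 6038 genes were called. At an unadjusted p under 0.05 there were 3 potassium channel genes, with 10.4% of all genes below that limit; the other two, Kcng1 at 6 of 23 against 0 of 20 and Kcnh3 at 4 of 91 against 0 of 117, had exact adjusted p of 0.284 and 0.387.

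Reads on the opposite strand, in models assigned to no annotated gene, crossed 34 of the 70 genes in both libraries, 48.6% against 49.1% of protein-coding genes. In 10 genes, 14.3% against 6.35%, they outnumbered the gene's own reads in both libraries. Kcnma1 had 271 and 232 antisense reads beside 22 and 27 of its own, over 29 separate tracts. Its largest tract, chr14:23987565-23989385 on the plus strand, held 76 and 71 reads and covered no exon of the gene. Kcnip4 had 187 and 172 antisense reads beside 23 and 35, and Kcnd2 had 45 and 50 beside 11 and 10. These 3 genes were far above their own reads in each library. Kcnj6, Kcnq5 and Kcnd3 were also among the 10, with 20 to 31 antisense reads a library, as were Kcnh7 and Kcnk10 with 11 to 15. The last pair were Kcnh6, with 13 and 7, and Kcnn3, with 2 and 6. In Kcnk10, 11 and 10 of the antisense reads lay in 1 tract that was 100% over exons of the gene itself.

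Antisense reads went with gene length, with a Pearson r of 0.71 between the logarithms of reads + 1 and of length, and a Spearman rho of 0.68 across the 70 genes. Median gene length was 43.7 kb for these genes and 25.9 kb for protein-coding genes. Of the antisense reads, 99.1% were single-exon, against 97.6% over protein-coding genes. No splice site shows the strand of such reads, and the sources used here do not say whether the counting kept strand. Reads from the 2 strands may then not be told apart. Kcnip2, second in level, had no antisense read.

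**Figure D5:**
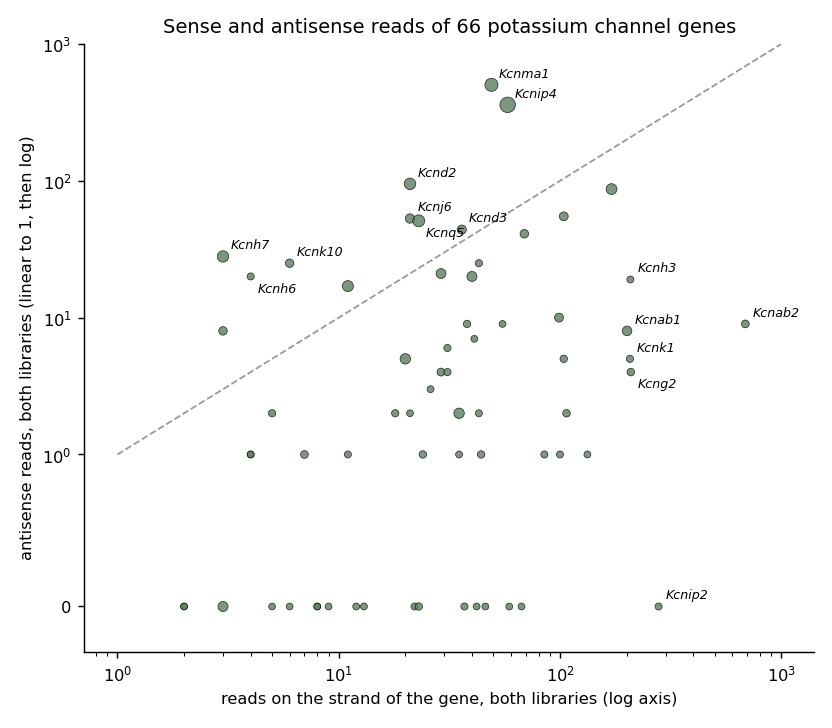
Antisense reads, on an axis linear to 1 and then log, against reads on the gene's own strand, on a log axis, for 66 of the potassium channel genes, with both libraries summed, point size rising with gene length and a dashed line of equality. Kcnma1, Kcnip4 and Kcnd2 lie far above the line, and Kcnab2 and Kcnip2 far below it.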

How the data were processed

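Each deposited table gives, per transcript model, the authors' count of whole long reads, with the model's exon number and length. Per the file headers and readme texts, alignments were to mm10, and TALON built models against GENCODE M21 in each library on its own. No aligner, platform or version is named in the sources used here. Members and gene lists were chosen with earlier results of these data known.

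Counts were summed per gene, and isoforms joined across libraries by their introns. Full values went to the 30 genes with most reads, the leading gene of each role, genes called in a test, the 10 highest and 5 lowest genomic shares, genes with more than 1 isoform and unannotated chains with 5 or more reads in each library; other genes, some under 20 reads, were named to account for the members. Values of 4 members are not reported here and are not drawn, but these genes stay in counts, sums and medians. Intervals are exact 95% Clopper-Pearson. Tests covered all genes with 20 or more reads (together for level, in each library for shares), with Benjamini-Hochberg adjustment. They compare libraries, not conditions, and without molecular identifiers their p-values may be too small. Alternatives changed read minimums, fold, classes, denominator, isoform share and scaling (TMM), or left out a replicate. Exon sequences are GENCODE M21 transcripts. Tools were Python 3.11.15, scipy 1.17.1, pandas 2.3.3, R 4.3.3 and edgeR 4.0.16.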

Additional observations from a re-analysis of the deposited data

How the results depend on the processing

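The median level of the 70 genes, 19.8 CPM, moved to 14.3 without genomic models, 14.6 with full-splice models alone and 23.3 over reads on annotated genes only, and was 18.8 to 20.8 with each replicate left out. Of the 30 genes with most reads, 6 were over 1.5 times lower without genomic models (among them Kcnc1, Kcnma1 and Kcnt1). With full-splice models alone 6 were as much lower, among them Kcnip4 (37.4 to 1.95 CPM), Kcnma1 (31.4 to 6.88), Kcnc1 (27.6 to 7.69) and Kcnh1 (25.2 to 16.2). In that setting 2 were higher, Kcnf1 (37.5 to 57.4) and Kcnj11 (26.7 to 40.8). All reads of Kcnf1 and Kcnj11 were full-splice, so their counts did not change. Only the read total that levels were divided by was smaller, and the lower levels were scaled to that total too. Without genomic models the total was also smaller, and Kcnf1 stood at 41.3 CPM with the same counts. The 1 call for gene level became 0 with full-splice models alone and 0 with downstream reads counted, and over all genes 28 calls became 14 with full-splice models alone and 52 with no fold limit. The 1 call for genomic share became 0 at 50 reads in each library, where Kcnc2 was not tested, and 0 with single-exon incomplete reads counted as genomic, where the Kcnc2 difference went from 16.3 to -0.0371 points and 301 calls over all genes became 6. With each replicate left out the median genomic share was 4.26% to 11.9% and the median full-splice share 76.2% to 81.1%. The latter, 78.6% in the report, was 69.1% over the 43 genes with at least 10 reads in each library. The 3 of 20 genes with more than 1 isoform became 12 of 20 at a share of 5%. They were 6 of 29 at 10 full-splice reads in each library and 1 of 7 at 50, so the genes tested changed too. With annotated chains alone they were 2 of 16, Kcnip3 and Kcnk2. With replicate 1 left out they were 9 of 23, and with replicate 2 left out 6 of 21. The 70 genes with reads in both libraries were 59 by full-splice models alone. No paired analysis was possible because there is 1 group. Most genes here have under 50 reads a library, which limits shares.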
